A study of Mus musculus with 7 samples.

Results

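The glycolytic isoenzymes described here are aldolases A and C (Aldoa, Aldoc), enolases 1 and 2 (Eno1, Eno2), hexokinases 1 and 2 (Hk1, Hk2), the phosphofructokinases of muscle, platelet and liver type (Pfkm, Pfkp, Pfkl) and the B subunit of lactate dehydrogenase (Ldhb). Members were chosen by gene symbol: every probe set to which the platform annotation gives 1 symbol, that of a member, was taken. Of the 10 genes, 9 had such a sense probe set, among 18193 genes with one in all. They held 22 sense probe sets, 19 of them on the 430A array and 3 on the 430B array, and 4 of the genes held 5 reverse probe sets. Eno1 had no probe set under this rule and was not analysed here. Brain and kidney of the mouse were compared on 7 Affymetrix arrays. For sense RNA, brain was hybridised to 2 arrays, 430A and 430B, and kidney to a 430 2.0 array that carries the probe sets of both. The reverse probe sets of the U74A and U74B arrays, which read RNA running opposite to the annotated transcript, were read once in brain and once in kidney. All groups were total RNA of whole dissected tissue, 8 micrograms for brain and 6.75 for kidney, with no treatment or genetic change named. Strain, sex, age and the number of animals are not given in the labels used here. There was 1 array for each tissue and design. Values therefore carry no replicate error, and neither tests nor p-values are given.

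Glycolysis turns glucose into pyruvate, and several of its steps can be carried out by isoenzymes, products of different genes that catalyse the same reaction with different kinetics and regulation. Hexokinase traps glucose in the cell, phosphofructokinase is the main regulated step, aldolase splits the sugar into triose phosphates, enolase makes phosphoenolpyruvate, and lactate dehydrogenase interconverts pyruvate and lactate. Brain relies on glucose as its main fuel, aldolase C is best known from astrocytes and Purkinje cells, and enolase 2 is known as neuron-specific enolase. Kidney is mixed: its proximal tubule mainly burns fatty acids and lactate and makes glucose, while segments further along the nephron use glycolysis.

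Values are given on a deposited and a centred scale. Signals are the deposited MAS5 values, and a fold is given after centring, which multiplied brain 430A signals by 1.79 and brain 430B signals by 0.236, so that bright probe sets had a median ratio of 1 between tissues. Signals under a floor were raised to it, with the floor at 186 on 430A and at 28.6 on 430B on the kidney scale. Where the lower tissue lay below that floor, the fold is a bound, worded as at least. The only repeat reading of a tissue came from 98 bright probe sets on both brain arrays, whose log2 differences had an SD of 0.25. This SD covers the same probe sets read again in brain. It does not measure the spread between animals or of a difference of 2 tissue ratios, and serves as a yardstick only. The median of these shared probe sets put 430B 1.33 above 430A on the log2 scale in brain, where the centring of the 2 arrays put it 2.93 above. Setting 430B by these shared probe sets would raise its brain signals 3.03-fold over those used here, so 430B folds of the members are also given on that scale. Tissue and array type cannot be told apart for sense RNA. In whole tissue, fewer cells of a type and less RNA per cell cannot be told apart either.

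The members differed in tissue ratio, also within the aldolase and phosphofructokinase steps, and not all leaned to brain. Brain exceeded kidney by 2-fold or more for Eno2, Aldoc, Pfkm, Pfkp and Hk1, 5 of the 8 genes that passed the floor in either tissue. Over all 12913 genes that passed it, 18.2% favoured brain by that margin and 26.4% kidney. Aldoa, Pfkl and Ldhb lay within 2-fold, and no gene favoured kidney by 2-fold or more in the probe set that represents it. As deposited, without centring, the counts were 4 in brain and 1 in kidney, against 24.2% and 26.6% of all genes; Hk1 dropped under 2-fold and Ldhb passed it in kidney. Centred log2 ratios of the 8 had a median of 1.87, against -0.08 over all genes. The members were chosen by name with earlier results of these arrays known, so their count is a description. By probe set on 430A, 8 of 17 that passed the floor favoured brain by 2-fold or more and 2 favoured kidney, where 19.8% and 21.1% of all probe sets did.

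**Figure D1:**
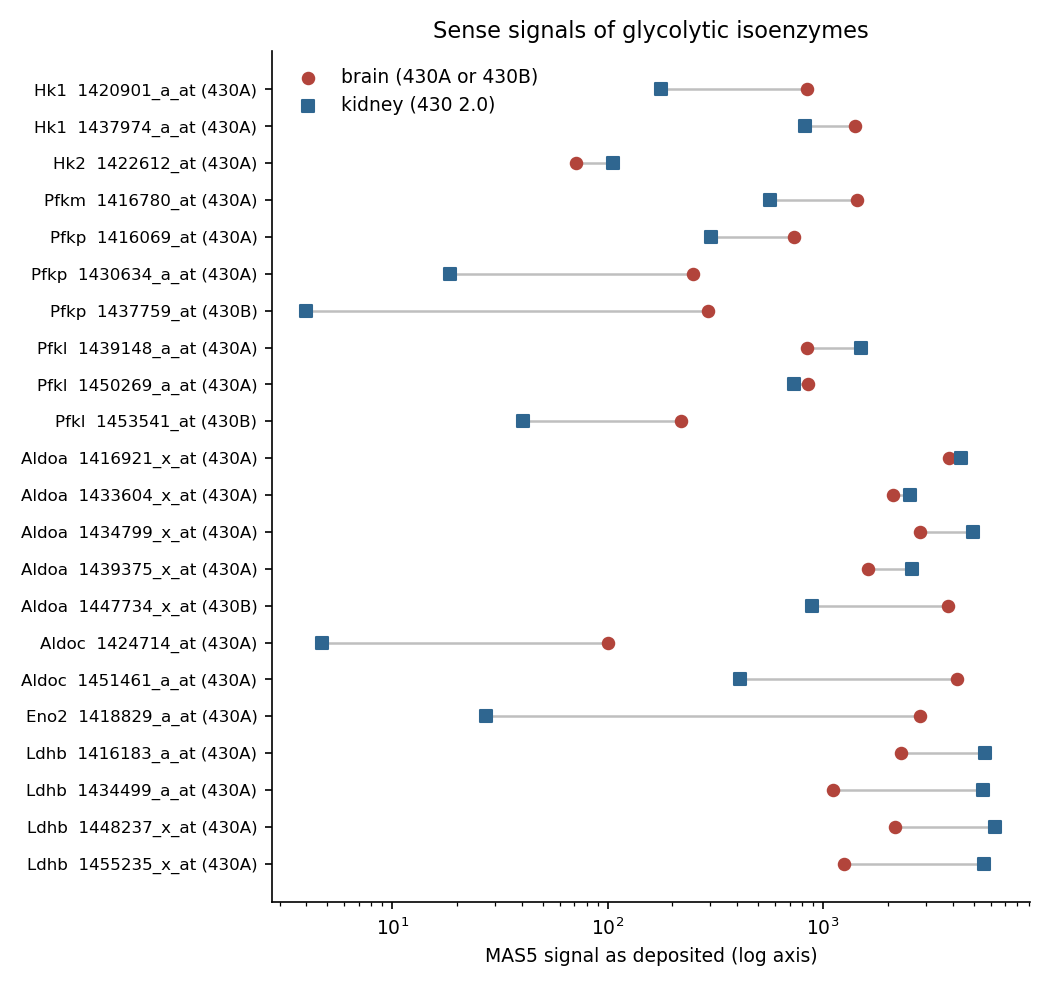
Deposited MAS5 signals (log axis) of the 22 sense probe sets, with brain as circles (430A or 430B array) and kidney as squares (430 2.0 array), 1 array each. Eno2, at 2815.4 in brain and 27.3 in kidney, shows the widest gap towards brain on 430A, and all 4 probe sets of Ldhb lie higher in kidney; the signals are drawn before centring, which multiplied brain 430B signals by 0.236.

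Hexokinase opens the pathway. Hk1, the form most tissues express and which binds the mitochondrial surface, read 1404.2 in brain and 825.8 in kidney by the probe set that represents it, its brighter one, 3.05-fold higher in brain. Its other probe set read 840.7 in brain and 176.7 in kidney, which puts brain at least 8.08-fold higher. Both thus lay on the brain side, but they stood at least 1.41 apart on the log2 scale, more than the SD of the repeat reading. As deposited, the ratio of the brighter probe set was 1.70, under 2-fold. A probe set shared with other genes read 863.2 in brain and 6434.5 in kidney, and it carries 6 symbols, among them that of the ribosomal protein gene Rpl17, and was left out by the rule. Hk2, the insulin-responsive hexokinase of muscle and fat, read 71.4 in brain and 106 in kidney, below the floor in both, so no ratio is given. Hk3, a hexokinase of blood cells, read 345.3 in brain and 43.9 in kidney on 430B, 1.85-fold higher in brain after centring and at least 2.84-fold higher on the scale of the shared probe sets.

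The phosphofructokinase subunits combine into tetramers, and tissues mix the muscle, platelet and liver types. Pfkm read 1438.7 in brain and 568.4 in kidney, 4.54-fold higher in brain. Pfkp read 732.6 in brain and 300.8 in kidney by its brightest probe set, 4.36-fold higher in brain. Its other 2 probe sets lay on the same side. That of 430A read 249.5 in brain and 18.6 in kidney, a bound of 2.40-fold towards brain, and that of 430B read 292.4 in brain and 4 in kidney, a bound of 2.41-fold on either scale. The ratios of Pfkm and Pfkp stood 0.06 apart on the log2 scale, within the SD of the repeat reading. Pfkl, the liver type, read 846.8 in brain and 1506 in kidney by the 430A probe set that represents it, a centred ratio of 1.01. Its other 430A probe set read 855.4 in brain and 735.6 in kidney, 2.08-fold higher in brain, and that of 430B read 219 in brain and 40.7 in kidney, 1.27-fold higher in brain and at least 1.80-fold on the scale of the shared probe sets. The 3 Pfkl probe sets therefore do not settle whether this subunit leaned towards brain or was even.

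Aldolase gave the clearest split between isoenzymes. Aldoc read 4198.6 in brain and 413.3 in kidney by its brighter probe set, 18.2-fold higher in brain. Its other probe set was dim, with 100.8 in brain and 4.7 in kidney, below the floor in both. Aldoa, the aldolase of muscle and of most other tissues, read 3844.2 in brain and 4394 in kidney by the probe set that represents it, 1.57-fold higher in brain after centring and 1.14-fold higher in kidney as deposited. Its other 3 probe sets on 430A read 2108.6, 2822.8 and 1623.7 in brain, against 2526.9, 4957 and 2578.8 in kidney, all within 2-fold after centring. On 430B, its probe set read 3812.2 in brain and 888.9 in kidney, a centred ratio of 1.01 but 3.06-fold higher in brain on the scale of the shared probe sets. All 5 probe sets of Aldoa carry the _x_at suffix, which marks probes that may also bind related sequences.

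Eno2, with Aldoc next, had the largest ratio of the members at the floor used. It read 2815.4 in brain and 27.3 in kidney, which puts brain at least 27.1-fold higher, by its single probe set. This bound is set by the floor: its log2 ratio was 4.76 here, 3.46 with a floor at the 75th percentile, where Aldoc was higher at 4.03, and 7.53 with no floor. Eno3, the enolase of muscle, read 117 in brain and 64.7 in kidney, where kidney was below the floor. Among all genes above the floor, 99.8% had a lower ratio than Eno2, 99.4% a lower one than Aldoc, 94.8% than Pfkm, 94.5% than Pfkp and 90.8% than Hk1. Aldoa, Pfkl and Ldhb lay nearer the middle, with 73.4%, 52.8% and 40.0% of genes below them.

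Ldhb encodes the subunit that prevails in tissues using lactate, and Ldha the one that prevails in muscle. Ldhb read 2307.7 in brain and 5648.4 in kidney by the probe set that represents it, 1.37-fold higher in kidney after centring. Its other 3 probe sets read 1117.2, 2167 and 1247.5 in brain, against 5533.5, 6310.8 and 5585.4 in kidney, 2.76-fold, 1.63-fold and 2.50-fold higher in kidney. The 4 probe sets all lay on the kidney side but spread over 1.02 on the log2 scale, and 2 of them passed 2-fold. As deposited all 4 were 2-fold or more higher in kidney, between 2.45-fold and 4.95-fold. Ldha read 837 in brain and 4166.7 in kidney, 2.78-fold higher in kidney.

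**Figure D2:**
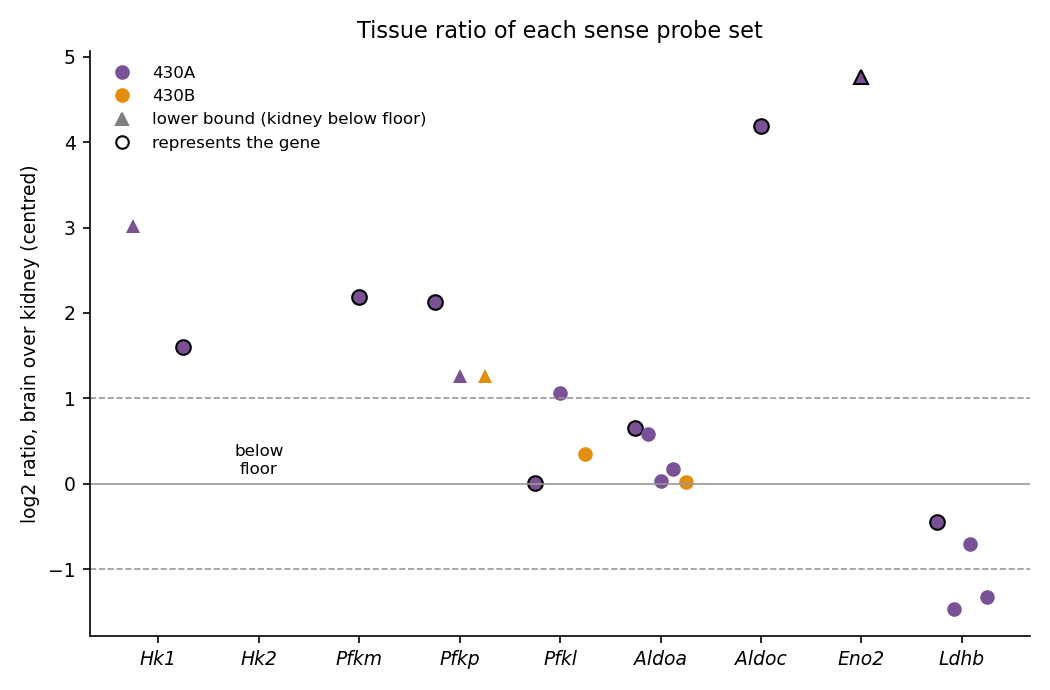
Centred log2 ratio of brain over kidney for each sense probe set above the floor (430A purple, 430B orange), with triangles as lower bounds, a black outline on the probe set that represents the gene and dashed lines at 2-fold. Aldoc and Eno2 stand at 4.19 and at least 4.76, Pfkm, Pfkp and Hk1 lie above 1, and the probe sets of Ldhb lie between -1.47 and -0.45.

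The choice of isoenzyme was then compared between tissues directly, as the difference of 2 log2 tissue ratios read on the same array pair. Where every signal lies above the floor, such a difference does not depend on how that pair is centred. A constant binding strength of each probe set cancels too, but probe sets of the same gene still differed in the pairings below. The balance of Aldoc over Aldoa was 11.6 times as high in brain as in kidney, a difference of 3.54 on the log2 scale, and over the 4 pairings of their 430A probe sets above the floor it ran between 3.54 and 4.16. The balance of Pfkm over Pfkl was 4.50 times as high in brain (2.17 on the log2 scale), and 2.18 times with the other Pfkl probe set. That of Pfkp over Pfkl was 4.33 times as high in brain, but over 4 pairings it ran between 1.15 and 4.33 times, the lowest with a lower bound for Pfkp. Pfkp and Pfkm differed by -0.06, and by -0.92 with the probe set of Pfkp that gives only a lower bound. The balance of Ldhb over Ldha was 2.03 times as high in brain, and the 4 probe sets of Ldhb gave differences between 0.0073 and 1.02, so both lactate dehydrogenase genes leaned to kidney and the size of their difference rested on the probe set. For hexokinase and enolase no such difference can be given, since Hk2 was below the floor in both tissues and Eno3 in kidney.

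The promoters of the aldolase pair and of Eno2 are shown because the aldolases differed most in tissue ratio among the pairs compared, and Eno2 had the largest ratio. Each line gives the 250 bases before an annotated start, 5′ to 3′ on the gene's strand, from RefSeq on GRCm38.p6. Capitals mark the motifs searched on both strands: the hypoxia response core ACGTG, the GC box GGGCGG, the TATA box TATAAA and TTCAGCACC, the left part of the RE1 element bound by the neuronal repressor REST. The motifs were chosen with the sequences in view, and which start each tissue uses was not measured.
Aldoc, chr11:78322823-78323072, plus strand: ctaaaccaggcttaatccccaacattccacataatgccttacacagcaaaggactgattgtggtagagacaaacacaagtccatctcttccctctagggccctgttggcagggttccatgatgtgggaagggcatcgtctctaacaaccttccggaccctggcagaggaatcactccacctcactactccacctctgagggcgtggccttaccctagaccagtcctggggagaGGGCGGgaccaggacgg
Eno2, chr6:124769674-124769923, minus strand: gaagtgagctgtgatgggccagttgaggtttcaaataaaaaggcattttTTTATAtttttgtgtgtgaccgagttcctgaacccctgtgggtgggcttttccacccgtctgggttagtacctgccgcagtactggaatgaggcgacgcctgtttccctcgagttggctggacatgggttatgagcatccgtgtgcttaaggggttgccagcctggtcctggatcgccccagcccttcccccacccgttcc
Aldoa, chr7:126799255-126799504, minus strand: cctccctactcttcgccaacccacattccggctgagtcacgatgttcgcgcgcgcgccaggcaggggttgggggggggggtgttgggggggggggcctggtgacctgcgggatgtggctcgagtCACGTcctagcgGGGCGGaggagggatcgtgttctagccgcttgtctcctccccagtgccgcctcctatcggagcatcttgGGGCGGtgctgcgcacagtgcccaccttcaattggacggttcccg
The Aldoc window held 1 GC box, the Eno2 window 1 TATA motif, and the Aldoa window 1 hypoxia response core and 2 GC boxes. The Eno2 match, TTTATA, is the motif on the opposite strand and lies nearer the far end of the window than the start. Aldoc has 2 annotated starts, Aldoa 3 and Eno2 1, and the window of 1 start is printed for each gene. The Aldoc start not printed held none of the motifs. Of the Aldoa starts not printed, 1 held none and 1 held 1 hypoxia response core and 3 GC boxes. Over the 19 annotated starts of all 10 genes, 26.3% held ACGTG and 36.8% a GC box, against 16.6% and 32.7% of 32817 promoters. TATAAA stood in 5.26% of them, against 12.4%, and TTCAGCACC in 0 of the 19, against 0.302%. Several of these starts overlap, so they are not independent.

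The other genes of the pathway were mostly within 2-fold after centring, a count that rests on the scaling. Of 20 further glycolysis genes 15 had a named probe set and 14 were above the floor, of which 1 favoured brain by 2-fold or more, 2 favoured kidney and 11 lay between, with a median log2 ratio of 0.07. As deposited, 4 of 13 favoured brain, 5 favoured kidney and 4 lay between. With 430B on the scale of the shared probe sets, 5 of 14 favoured brain and 2 kidney, against 26.6% and 15.7% of all genes. The genes added there are Hk3, Eno4, which is a further enolase gene, and Pfkfb2 and Pfkfb4, enzymes that set the level of an activator of phosphofructokinase. After centring, the brain gene was Pkm, the pyruvate kinase of muscle and brain, with 2525.1 in brain and 1713.2 in kidney, 2.64-fold higher in brain. The kidney genes were Ldha and Pgam2, the phosphoglycerate mutase of muscle, which read 9.5 in brain and 556.4 in kidney, a bound of 2.99-fold towards kidney. Bpgm, which makes bisphosphoglycerate in red cells, read 217.4 in brain and 773.5 in kidney, 1.99-fold higher in kidney, though another of its probe sets read 275.5 in brain and 252.7 in kidney, 1.95-fold higher in brain. By their representing probe sets, log2 ratios lay within 2-fold for phosphoglycerate kinase Pgk1 at 0.03, for the mutase Pgam1 at -0.06 and for triosephosphate isomerase Tpi1 at -0.51. Of the 3 probe sets each of Pgk1 and Tpi1, however, 1 lay past 2-fold towards kidney, at -1.94 for Pgk1 and at -1.31 for Tpi1. Gluconeogenesis, the reverse route that kidney shares with liver, gave 6 of 8 genes that favoured kidney by 2-fold or more and none that favoured brain, with a median of -2.31. Its bypass of phosphofructokinase, Fbp1, read 79.6 in brain and 8749.2 in kidney.

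**Figure D3:**
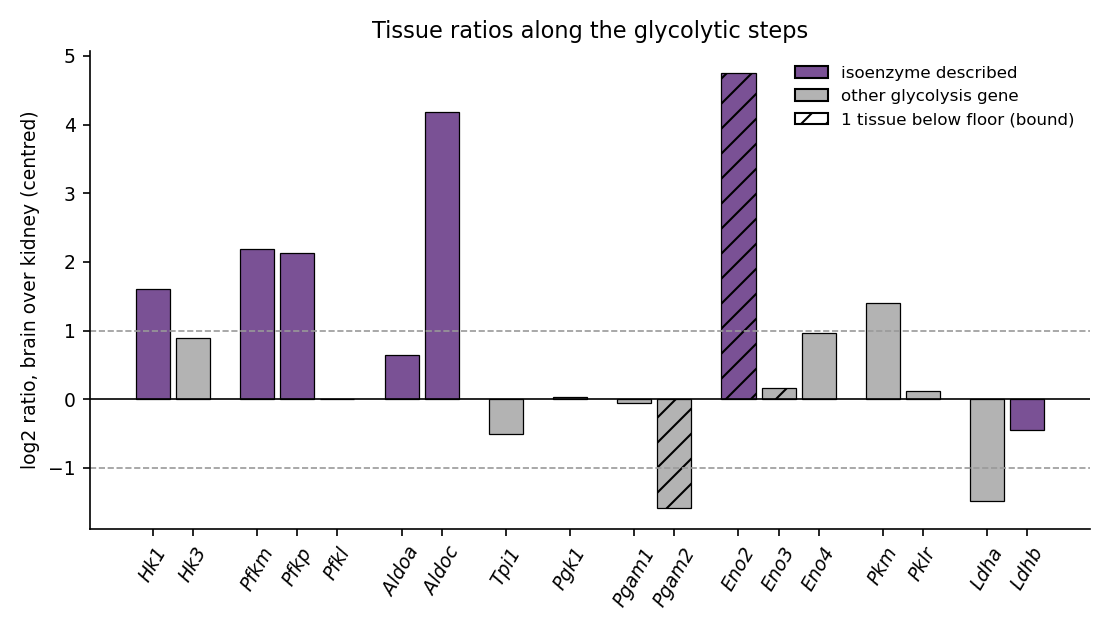
Centred log2 ratio of brain over kidney for the representing probe set of genes above the floor, ordered along the glycolytic steps. Members are in purple and other glycolysis genes in grey, with hatching for bounds and dashed lines at 2-fold. Bpgm, Pfkfb2, Pfkfb3 and Pfkfb4 were above the floor but are not drawn. Tall bars at Aldoc and Eno2 stand beside Tpi1, Pgk1 and Pgam1, which lie between -0.51 and 0.03.

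Markers of cell types are given beside these ratios. All 6 neuron markers favoured brain by 2-fold or more, with a summed centred signal of 22339.5 in brain and 148.6 in kidney, and all 5 oligodendrocyte markers with a named probe set did too (20596.3 and 452). Of 6 astrocyte markers 4 were higher in brain and 1, Aldh1l1, in kidney (9254.5 and 2853.7). Of 6 proximal tubule markers 5 were higher in kidney (507.7 in brain and 22135.9 in kidney), the exception being the 430B probe set of Lrp2, and all 6 markers of later nephron segments were too (426.8 and 22431.6). Of the muscle markers, relevant to Aldoa, Pfkm and Pgam2, 1 of 5 was above the floor. It was Ckm, 2.64-fold higher in brain after centring, by a 430B probe set. The summed signal of the muscle markers was 350.7 in brain and 118.9 in kidney. Of 4 pituitary markers 3 were higher in brain (22940.9 in brain and 123.8 in kidney). Both fat markers with a named probe set were higher in kidney (51.6 in brain and 5605.2 in kidney), and 1 of 2 red cell markers was above the floor, within 2-fold (336.3 and 448.2). Among 3 choroid plexus markers 2 were higher in kidney (9438.2 in brain and 11384.3 in kidney). No marker was at 0 in either tissue. Where a sum holds 430B probe sets, their brain signals would be 3.03-fold higher on the scale of the shared probe sets. The part of these cell types in the isoenzyme ratios was not tested.

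Reverse probe sets gave antisense readings for Aldoa, Aldoc, Hk2 and Pfkp. The brighter reverse probe set of Aldoa read 202.9 in brain and 48.3 in kidney, which puts brain at least 3.20-fold higher over the U74A floor of 63.5. The single reverse probe set of Aldoc read 128.1 in brain and 42.1 in kidney, which puts brain at least 2.02-fold higher. Of U74A probe sets above the floor, 28.8% favoured brain by 2-fold or more and 3.73% favoured kidney. The other reverse probe set of Aldoa read 29.5 in brain and 25.9 in kidney, below the floor in both. It gives no tissue ratio, so the ratio at this locus rests on 1 of 2 reverse probe sets. Hk2 gave reverse signals of 3.1 in brain and 6.2 in kidney, and Pfkp, on U74B with a floor of 98.5, gave 8.7 in brain and 9.2 in kidney. Sense and reverse readings of Aldoc both lay on the brain side, while those of Aldoa were within 2-fold for sense and at least 3.20-fold towards brain for 1 of 2 reverse probe sets. These U74 signals were compared as deposited. With each pair centred, or with quantile normalization, Aldoc was under 2-fold, and with a floor at the 90th percentile Aldoa was under 2-fold as well.

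**Figure D4:**
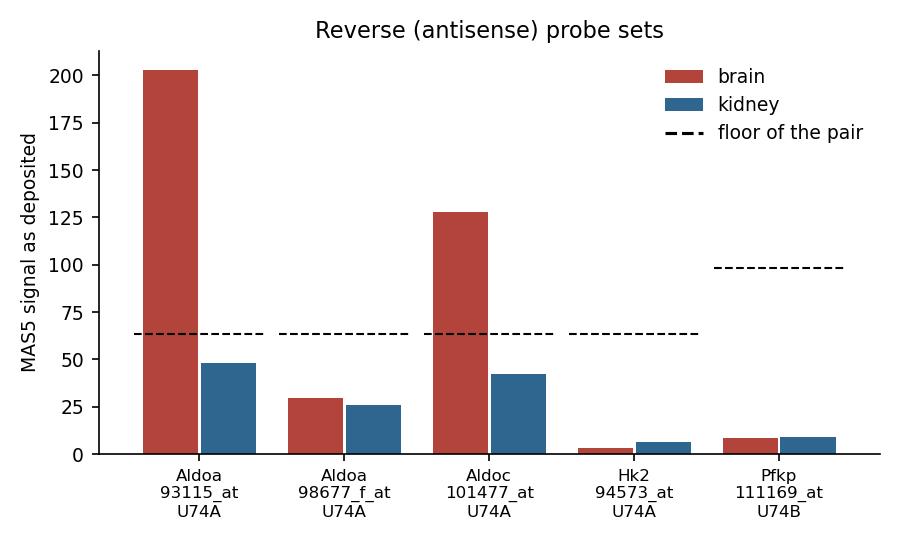
Deposited MAS5 signals of the 5 reverse probe sets of members in brain and kidney (1 array each), with the floor of each array pair as a dashed line. Only the brighter reverse probe set of Aldoa and that of Aldoc pass the floor of 63.5, both in brain alone.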

How the data were processed

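Per the submitters' processing notes, the authors made the deposited intensity values with MAS5, on a linear scale and scaled per array to a target not given in the sources used here. With 2% of values cut at each end, mean signals were 199.3 on brain 430A, 199.1 on brain 430B and 198.9 on kidney 430 2.0. The kidney mean spans the probe sets of both brain arrays. Per the labels, reverse probe sets of the U74 arrays were picked with Affymetrix's mask. No detection calls or probe sequences were used here. From these values, each brain sense array was set against the matching kidney probe sets and centred on the median log2 ratio of probe sets above both medians; the floor was the higher median (sense) or the higher 75th percentile (antisense, as deposited). Each gene's value is that of its probe set with the highest percentile averaged over brain and kidney, and symbols came from GEO's platform annotation, updated by gene identifier to RefSeq on GRCm38.p6. Coordinates are given for the promoter windows alone, from RefSeq, since no build is named for the arrays. Differences of 2-fold or more were counted, and differences of isoenzyme ratios were taken within 430A. The setting with medians over probe sets is an exception, since it took in 430B probe sets. All members are named; of the other glycolysis genes, the rule named family partners and the 4 with the largest absolute log2 ratio, and the genes near an even ratio, Fbp1 and the single markers were chosen after their values were seen. The members and lists were chosen with earlier results of these data known. With 1 array per group, the number of arrays limits the precision. Calls of 2-fold on the sense arrays were tested on simulated data. Python 3.11.15, numpy 2.4.6 and pandas 2.3.3 were used.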

Additional observations from a re-analysis of the deposited data

How the results depend on the processing

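For the sense ratios, 8 settings were tried. The count of 5 genes higher in brain became 4 with signals as deposited and with probe sets of several symbols, and was 5 otherwise. The count of 0 higher in kidney became 1 with signals as deposited (Ldhb), with medians over all probe sets (Ldhb) and with probe sets of several symbols, where Hk1 turned to -2.06 through the probe set shared with Rpl17. Of 63 gene values under the alternatives, 41 moved by less than the repeat reading's SD and 21 by more, and 1 changed sign from a called value. Most of the 41 equalled the main value exactly, because the setting did not alter the reading used for that gene. The count of 41 is therefore no measure of stability. Uncalled ratios near 0 also changed sign: Aldoa was -0.19 and Pfkl -0.83 as deposited, and Ldhb 0.01 with quantile normalization. On the log2 scale, the difference of Aldoc and Aldoa was 3.21 with quantile normalization, 4.01 with the median of probe sets and at most 4.16 over pairings. That of Pfkm and Pfkl was 1.84 with the median and at least 1.12 over pairings. The medians of Pfkl and of Pfkp fall on 430B probe sets, whereas Pfkm has a 430A probe set alone. Differences from Pfkm with the median therefore mix array pairs and depend on their centring. For Pfkp and Pfkl it was 1.80 with quantile normalization, 1.51 with a floor at the 75th percentile, 0.92 with the median and at least 0.20 over pairings. For Pfkp and Pfkm it was -0.67 with that floor, -0.91 with the median and -0.92 at the lowest pairing. In these settings the kidney signal of Pfkp lay below the floor, so the Pfkp differences there, also those from Pfkl, are lower bounds. With no floor, the 2 dimmer Pfkp probe sets had log2 ratios of 4.59 and 4.11, on kidney signals of 18.6 and 4. For Ldhb and Ldha the difference was 0.46 with the median and 0.0073 at the lowest pairing. The pairings were added after the data were seen. Without _s_at and _x_at probe sets Aldoa has none, so the aldolase difference has no value there. The count of 2 reverse probe sets higher in brain became 1 with centring, 1 with quantile normalization and 0 with a floor at the 90th percentile. With 430B on the 430A scale the median of all genes was 0.29, and 26.6% of all genes favoured brain by 2-fold or more, against 18.2%. Neither count of member genes could change there, since the probe sets that represent the members are all on 430A. Beyond the settings whose construction shows it, the cause was not tested. No paired analysis was possible because each group had 1 array. Signals below the floor in both tissues leave no ratio for Hk2, 1 Aldoc probe set and 3 reverse probe sets. Kidney signals below it make bounds of Eno2, Eno3, 1 Hk1 and 2 Pfkp probe sets and the other 2 reverse probe sets.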
